A study of Mus musculus with 4 samples.

Results

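In nuclei of activated mouse B cells, 151 short regions of convergent transcription were called in every library and had a high mean signal. They were chosen from 20175 regions obtained by merging the deposited lists of 4 libraries wherever they shared at least 1 base. A region was kept if it was called in all 4 libraries (4972 were), did not lie on the mitochondrial genome, had a mean called length under 3000 bp and had a mean signal over the 4 libraries of at least 100. The 151 are 3.04% of the regions called in all 4 libraries and 3.62% of the compact ones among these. Since the signal chose them, their high level is a description and is not tested. Longer regions and regions lacking a call in some library could be as strong, and are counted below. The other 4018 compact regions called in all 4 libraries, whose mean signal was under 100, serve as the comparison.

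The cells were splenic B cells of C57BL/6 mice with the genotype Fucci-EGFP+, a reporter that follows the cell cycle, and every culture received LPS, IL4 and Rp105 as activating agents. In the control group, called unsynchronized here, 2 libraries were made from cells across the cycle. In the early G1 group, 2 libraries were made from cells held with nocodazole, which blocks mitosis, at 100 ng/ml from 42 h after isolation for 6 h. EGFP+ cells of that culture, mostly in G2/M, were sorted, returned to culture for 1.5 h and sorted again for early G1. The deposited name of early G1 replicate 1 says 1 h in place of 1.5 h. Effects of nocodazole, sorting and return to culture cannot be told apart from those of the phase itself. Whether the 2 libraries of a group stem from different animals or cultures is not recorded, so each p-value reflects variation among these libraries alone, and that variation can be technical. The files name no genes, so B cell marker genes could not be examined.

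Global run-on sequencing lets RNA polymerases that are already engaged on DNA extend their transcripts in isolated nuclei, and reads the labelled nascent RNA by strand. It records the work of all nuclear RNA polymerases, from long protein-coding genes to the short, very active genes for tRNAs and other small RNAs. Convergent transcription means that sense and antisense nascent RNA come from the same stretch of DNA. It is common at active promoters and enhancers, and in activated B cells such stretches have been linked to off-target activity of the deaminase AID. The files use the mouse build mm9 and name no genes, and no mm9 annotation or genome was used here. Positions below are 1-based in that build and carry no gene, exon or sequence.

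The signal of a region is the deposited geometric mean of its strands, scaled by length. Its square times the squared length was a whole multiple of 1 constant per library, within a tolerance of 0.1, for 100% of the 2164 to 3384 regions tested in each library. This allowed the geometric mean of the strands' read counts to be recovered, called reads below. Taking the constant to be that of RPKM values, library sizes came to 14720000 and 13480000 reads for unsynchronized replicates 1 and 2, with 8170000 and 9520000 for early G1. The deposited lists held 10708 to 12768 regions per library. In unsynchronized replicates 1 and 2 the median member held 1223 and 1456 reads, and in early G1 replicates 1 and 2 it held 1310 and 1262. The medians of the other compact regions were between 217 and 277 reads. In the library with fewest reads, counting error alone was at least 2.40% of the signal of the median member. Of the 151 members, 3 held under 100 reads in some library. These errors cover counting only, since copies of a molecule cannot be seen in region lists.

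The level fell steeply from the first member to the last. The median of the mean signals was 135.5, and the range was 100.1 to 94720. The mean signal was between 100 and 150 in 89 members, between 150 and 300 in 34, between 300 and 1000 in 17 and above 1000 in 11. Members were short, with a median mean called length of 722 bp, and 11 were under 300 bp. The median mean signal was 127.2 in members under 300 bp, 144.8 in the 41 of 300 to 500 bp, 133.9 in the 48 of 500 to 1000 bp, 128.1 in the 38 of 1000 to 2000 bp and 152.8 in the 13 of 2000 to 3000 bp. The 11 members above 1000 had a median called length of 483 bp. Every library called the region as a single piece in 146 members (96.7%), against 88.5% of the other compact regions.

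**Figure D1:**
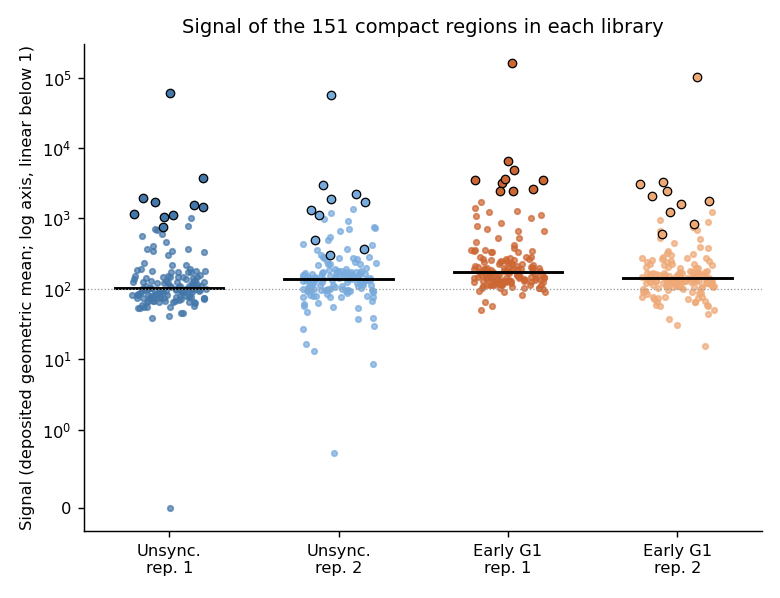
Signal of each of the 151 compact regions (points) in each of the 4 libraries, on a log axis that is linear below 1. Bars mark the library medians of 101.6, 138.8, 175.4 and 140.7, outlined points are the 10 regions of highest mean signal, and the dotted line is at 100. One region stands far above the rest in every library, and 1 region is at or near 0 in both unsynchronized libraries alone.

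A single region stood above all others. At chr16:35981508-35981979, 472 bp in span, the signal was 61248 and 56382 in unsynchronized replicates 1 and 2 and 160852 and 100397 in early G1 replicates 1 and 2. Its mean was 22.9 times that of the next member. It held 5.07% and 5.48% of all signal times length in unsynchronized cells, against 8.52% and 4.85% in early G1. Both early G1 signals were above both unsynchronized ones, but the early G1 libraries lay far apart. The recovered reads were 287527, 358618, 416340 and 247666 in the same order, and on that unscaled measure the groups overlapped. Another called region lay 394 bp away.

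The members after it were on several chromosomes. At chr11:68937711-68938528 the signals were 3756 and 2991 in unsynchronized cells against 6517 and 3253 in early G1 cells, so the groups overlapped. At chr11:48670027-48670583 they were 1977 and 1718 against 3196 and 2424, with no overlap. The region chr1:134930496-134931003 had 1708 and 2217 against 3491 and 1793, and here the groups overlapped. The pattern was the same in several of the strongest regions: early G1 replicate 1 was highest, and early G1 replicate 2 lay near the unsynchronized libraries. At chr11:68854308-68854901 the signals were 1458 and 1321 against 4881 and 1582. At chr9:65049233-65049652 they were 758 and 1121 against 3546 and 835, with early G1 replicate 2 inside the unsynchronized range. Early G1 replicate 1 had the highest signal in all of the 10 strongest members.

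Replicates lay close together at 2 strong regions on chromosome 7. At chr7:127978617-127979162 the signals were 775.6 and 766.4 in unsynchronized cells against 1289 and 1237 in early G1 cells, means of 771.0 ± 6.52 and 1263 ± 37.2 (SD, n = 2). At chr7:105963891-105964382 they were 1555 and 1867 against 2644 and 2082. The groups did not overlap at either region. Their log2 changes were 0.71 (SE 0.45, limma adjusted p = 0.46) and 0.46 (SE 0.49, limma adjusted p = 0.65), and neither passed the test described below.

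The rule averages the 4 libraries on a linear scale, so 1 high library could bring a region in. In 60 members the signal was at least 100 in every library. In 46 the mean of the other 3 libraries was under 100 once the highest was set aside, and in 14 a single library gave over 50% of the summed signal. Just inside the signal threshold lay chr9:7764073-7764843 at 100.1, chr17:34421858-34424787 at 100.8 and chr9:7870680-7873007 at 101.1, and just outside lay chr5:30339664-30341398 at 99.8, chr3:95462607-95463516 at 99.5 and chr3:96132464-96132870 at 98.1. Just under the length limit were chr6:128920743-128924656 with a mean called length of 2964.5 bp, chr1:85098762-85102286 with 2941.5 bp and chr11:87569068-87573158 with 2613 bp. The first beyond it were chr16:58702115-58705420 with 3153 bp and chr14:122361129-122364391 with 3175 bp. In all, 28 regions called in all 4 libraries had a mean signal of at least 100 but were too long.

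A further 125 compact regions had a mean signal of at least 100 where they were called, but lacked a call in at least 1 library. Of these, 55 were called in 1 library, 32 in 2 and 38 in 3. Their median called length was 387 bp. The 38 lacked the call in unsynchronized replicates 1 and 2 in 11 and 6 cases and in early G1 replicates 1 and 2 in 11 and 10 cases, so no library accounted for most of the 38. The 55 were uneven, with 0 and 19 called only in unsynchronized replicates 1 and 2, and 20 and 16 only in early G1 replicates 1 and 2. Both unsynchronized libraries and neither early G1 library called 6 regions, and 10 showed the reverse. The strongest, chr17:39983335-39985442, had signals of 1414 and 9218 in unsynchronized replicates 1 and 2 and 2739 in early G1 replicate 2, and no call in early G1 replicate 1. A missing call does not show that signal was absent.

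Apart from leaving out the mitochondrial genome, the rule did not use position. Members lay on 19 chromosomes. Chromosome 13 held 17 members, 11.3% of all, against 4.18% of the other compact regions. Chromosome 6 held 16 (10.6% against 5.28%) and chromosome 17 held 12 (7.95% against 4.63%). Chromosome 10 held 3 (1.99% against 5.62%), and chromosome X held none, against 104 of the other compact regions (2.59%). These shares are descriptions of 1 set of regions and were not tested.

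**Figure D2:**
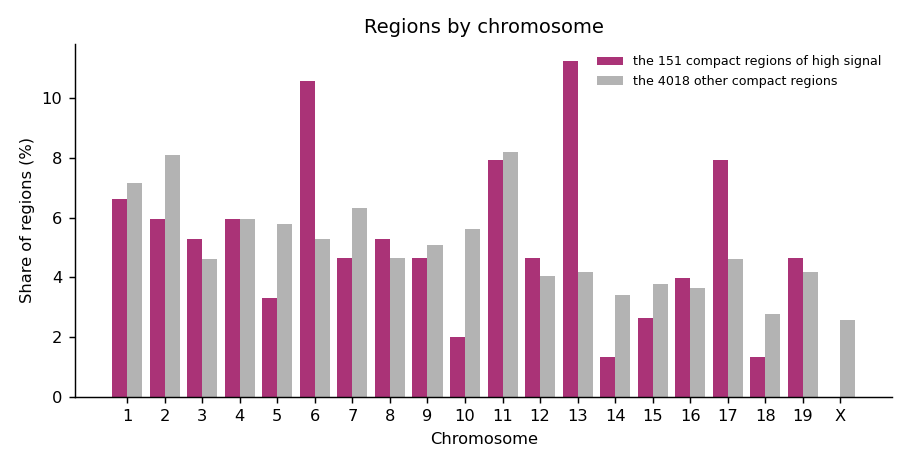
Share of regions on each chromosome, in percent, for the 151 compact regions of high signal (purple bars) and the 4018 other compact regions called in all 4 libraries (grey bars). Chromosomes 13 and 6 hold 11.3% and 10.6% of the former against 4.18% and 5.28% of the latter, and chromosome X holds none of the former.

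Nearly all members on chromosome 13 lay in one short stretch. Between 21 and 24 Mb there were 15 of the 151 members (9.93%) and 12 of the 4018 other compact regions (0.299%). The limits of this stretch were chosen after the positions were seen. As background, chromosome 13 carries the main cluster of replication-dependent histone genes of the mouse together with many tRNA genes, but which genes the members cover was not examined. Their signals ranged from 38.3 to 1171 in unsynchronized replicate 1, from 8.44 to 1192 in replicate 2, from 64.1 to 2481 in early G1 replicate 1 and from 59.1 to 935.7 in replicate 2. Between the groups, 4 of the 15 were higher in both early G1 libraries and 2 lower in both. Over all regions called in all 4 libraries, 43.9% and 4.67% were. The median log2 change was 0.31, against 0.41 over all regions. Of the 15, 1 passed the test described below, against 0.342% of all regions tested. These counts are descriptions of a stretch chosen after the fact and were not tested.

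The strongest on chromosome 13 was chr13:23518332-23519060, where the libraries numbered 1 stood above those numbered 2 in both groups. Its signals were 1171 and 298 in unsynchronized cells against 2481 and 598 in early G1 cells. At chr13:21259422-21260111 the same held more strongly, with 341 and 29.8 against 791 and 59.1. Replicate 1 was thus 11.5-fold and 13.4-fold above replicate 2, and the groups could not be separated there. Among all members, and counting chr19:12083017-12084043 with unsynchronized signals of 0 and 0.703, replicates were over 2-fold apart in both groups at 6 regions. In 3 of them replicate 1 was higher in both groups, and the third of these, named after its values were seen, was chr17:23677855-23678175 with 600 and 80.3 against 1410 and 513.

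With gaps of up to 50 kb, 22 members (14.6%) fell into 9 clusters, of which 7 were pairs. The largest cluster held 5 members over 87.8 kb, from chr13:23626065-23626808 to chr13:23713143-23713903. The first of these had signals of 405 and 718 in unsynchronized cells against 352 and 274 in early G1 cells, and was lower in both early G1 libraries. The second, chr13:23646834-23648037, had 459 and 1192 against 422 and 763. The third, chr13:23663644-23665804, was the most even, at 235 and 281 against 339 and 301. The fourth, chr13:23666570-23667707, had 81.0 and 147 against 196 and 135, and the last had 221 and 434 against 347 and 346. Members of this cluster therefore did not share a direction between the groups.

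The next largest cluster held 3 members within 33.2 kb, and unsynchronized replicate 2 set them apart from each other. At chr13:21264023-21264833 that library had 921 and unsynchronized replicate 1 had 345, whereas early G1 cells had 1227 and 936. At chr13:21291909-21292619, by contrast, unsynchronized replicate 2 had 8.44 on 36 reads, and the other 3 libraries had 181, 198 and 220. The third member, chr13:21259422-21260111, was low in both libraries numbered 2, as given above. The pair of highest summed signal was on chromosome 11, where chr11:68854308-68854901 lay 20.3 kb from chr11:68875202-68876573. The latter had 155 and 299 in unsynchronized cells against 285 and 172 in early G1 cells, and its groups overlapped.

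Other called regions were often close by. Another merged region lay within 1 kb of 61 members (40.4%), against 26.4% of the other compact regions, and within 10 kb of 73.5% against 59.7%. The median distance to the nearest one was 2293 bp, against 6008 bp. Members had several times the reads of the other compact regions, and the part of this in the difference was not tested.

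The called edges of members recurred closely from library to library. For each region the outermost starts of the 4 libraries were compared, and likewise the outermost ends. The median distance was 58 bp at the start and 60 bp at the end, against 200 and 193 bp in the other compact regions. Both edges lay within 100 bp in 63 members (41.7%), against 13.3%. The longest call was at most 1.5 times the shortest in 101 members (66.9%), against 38.5%. The rule limits the mean length but not these distances. Members were shorter, with a median of 722 bp against 1026 bp, and held more reads, and the part of either in the difference was not tested.

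**Figure D3:**
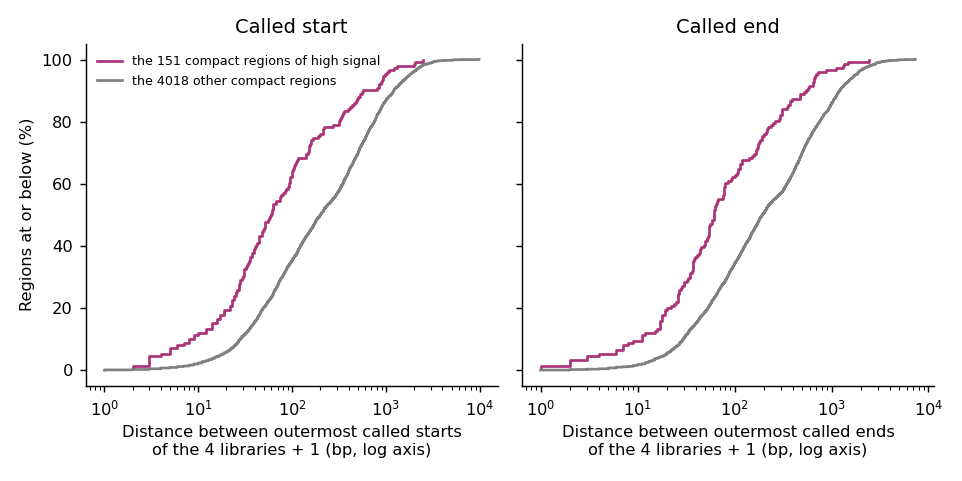
Cumulative share of regions, in percent, by the distance in bp between the outermost called starts (left) and ends (right) of the 4 libraries, plus 1, on log axes. The purple line is the 151 compact regions of high signal, with medians of 58 and 60 bp, and it lies left of the grey line of the 4018 other compact regions, with medians of 200 and 193 bp.

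The regions with the most even called lengths show how exact this could be. They were chosen after their values were seen. At chr11:115891945-115892726 the called lengths were 780 and 782 bp in unsynchronized cells against 777 and 775 bp in early G1 cells. At chr4:10801156-10802348 they were 1165 and 1154 bp against 1166 and 1166 bp. At chr6:57485744-57486428 they were 676 and 684 bp against 677 and 680 bp. An even length did not mean an even level. At chr11:115891945-115892726 the signals were 83.6 and 94.0 against 210 and 239, with both early G1 libraries more than 2-fold above both unsynchronized ones. Its log2 change was 1.33 (SE 0.41, limma adjusted p = 0.18) and did not pass the test.

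The ratio of called length between the groups had a median near 1. The median ratio of mean called length, early G1 over unsynchronized, was 1.002 in members, with quartiles of 0.942 and 1.12, and 1 in the other compact regions, with quartiles of 0.852 and 1.22. A few members departed widely. At chr7:148041207-148043392 the unsynchronized libraries called 179 and 112 bp and the early G1 libraries 2186 and 1882 bp, 13.98 times as long. There the signal was 44.7 and 279 in unsynchronized cells against 50.7 and 37.6 in early G1 cells, while the reads were 118 and 421 against 904 and 674. The signal was thus lower on average in early G1 cells while the reads were higher in both libraries. The deposited signal is scaled by the called length.

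Of the 5 members with the lowest log2 changes, 3 had early G1 calls over 2 times as long as the unsynchronized ones, this region among them. At chr6:83057946-83059271 the calls were 247 and 160 bp in unsynchronized cells against 359 and 1150 bp in early G1 cells, with signals of 90.0 and 245 against 82.7 and 15.6. At chr5:124777578-124778664 the calls were 473 and 363 bp against 1087 and 976 bp, with signals of 107 and 267 against 57.8 and 44.0, so both early G1 libraries were lower. At chr17:48548368-48550214 only early G1 replicate 2 was long, with 1847 bp against 529, 636 and 471 bp. In the opposite direction, at chr3:96040789-96042429 unsynchronized replicate 2 alone was long, with 1641 bp against 338, 357 and 333 bp. Its signals were 150 and 139 against 126 and 64.5, and both early G1 libraries were lower.

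Of the 5 members whose calls were shortest in early G1 relative to unsynchronized cells, 3 more are described here. At chr17:27989572-27990165 the calls were 515 and 594 bp against 207 and 199 bp, and the signals were 183 and 182 against 332 and 59.9, so that the unsynchronized libraries lay between the early G1 ones. At chr8:90812350-90812992 only unsynchronized replicate 1 was long, with 580 bp against 103, 117 and 159 bp, and it had the lowest signal, 45.3 against 156, 155 and 102. At chr17:35378626-35380202 early G1 replicate 1 was short, with 191 bp against 1028 to 1199 bp, and it had the highest signal, 248 against 64.4, 47.0 and 93.4.

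The share of members with replicates far apart was close to that of other regions. The replicates were over 2-fold apart in 27 members in unsynchronized cells (17.9%) and in 26 in early G1 cells (17.2%), against 16.0% and 16.8% of the other compact regions. The median residual SD of log2(signal + 1) was 0.39 in both sets. All 4 libraries were within 2-fold of each other in 61 members (40.4%, against 39.2%). Regions raised by 1 high library could enter through the rule, which affects these counts. Across the 151 members, the Spearman correlation of signals was 0.65 between the unsynchronized and 0.64 between the early G1 libraries, and 0.37 to 0.60 across the groups. All were lower than in the other compact regions, at 0.80 and 0.73 within the groups and 0.66 to 0.77 across them. The Pearson correlation of log2(signal + 1) went the other way within the groups, at 0.84 and 0.86 in members against 0.76 and 0.71. Across the groups it was 0.61 to 0.79 in members against 0.62 to 0.76. These correlations are descriptions over regions that share their libraries and that were selected for a high mean. Member signals spread widely, from 0 to 61248 in unsynchronized replicate 1 around a median of 101.6. The part of such extreme members in the Pearson values was not tested.

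**Figure D4:**
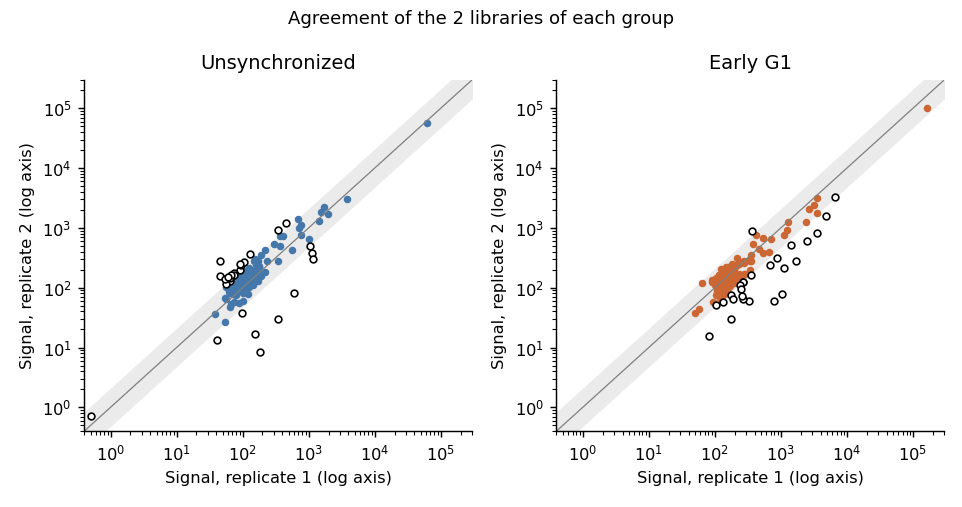
Signal of the 151 compact regions in replicate 2 against replicate 1, for unsynchronized cells (left) and early G1 cells (right), on log axes, with signals under 0.5 drawn at 0.5. The grey band marks 2-fold agreement. Open points had replicates over 2-fold apart: 27 regions in unsynchronized and 26 in early G1 cells. All lie outside the band except chr19:12083017-12084043 on the left, whose signals of 0 and 0.703 fall inside it because 0 is drawn at 0.5.

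Single libraries stood apart in the members and in all regions called in all 4 libraries. Early G1 replicate 1 had the highest signal in 77 of the 151 members (51.0%), against 38.8% of all those regions. Unsynchronized replicate 2 was highest in 42 (27.8% against 23.0%) and early G1 replicate 2 in 31 (20.5% against 36.0%). Unsynchronized replicate 1 was highest in 1 (0.662% against 2.23%) and lowest in 82 (54.3% against 59.9%). The rule's mean can admit a region through 1 high library, which affects these counts. Over all regions called in all 4 libraries, the median signals were 16.9 and 22.4 in unsynchronized cells against 27.1 and 26.5 in early G1 cells, so that the libraries differed generally. After division of each library by this median, the highest signal was in unsynchronized replicates 1 and 2 in 27 and 46 members and in early G1 replicates 1 and 2 in 52 and 26. The lowest was then most often in early G1 replicate 2, with 63 members.

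Members held 11.3% and 11.5% of all signal times length in unsynchronized cells, against 16.7% and 10.9% in early G1. They took up 0.604% and 0.731% of the called length in unsynchronized cells, against 0.741% and 0.906% in early G1. For called length the groups did not overlap (exact two-sided permutation p = 0.333). The share of signal times length was 11.4 ± 0.115% against 13.8 ± 4.13% (SD, n = 2), and the groups overlapped (exact two-sided permutation p = 1, where 0.333 is the smallest possible). Early G1 replicate 1 alone was high. Without it the difference of 2.41 percentage points became -0.51, and without early G1 replicate 2 it was 5.33. Without the member of highest signal the shares were 6.58% and 6.35% against 8.97% and 6.35%. Members were chosen by their signal in these same libraries, so the shares are not independent of the rule. With 0.333 as the smallest possible value, neither permutation test could pass 0.05, and no conclusion is drawn from them.

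The comparison of the groups asked whether early G1 cells differed from unsynchronized cells in the level of these regions. Signals were compared on the log2(signal + 1) scale by limma's two-sided test over all 4972 regions called in all 4 libraries. A region passed at a Benjamini-Hochberg adjusted p under 0.05. The rule's mean over the libraries is not independent of this contrast, since a region low in one group could enter only by being high in the other. The mean was at least 100 in early G1 and under 100 in unsynchronized cells in 50 members, and the reverse held in 13. Counts of members in either direction are therefore given as a description beside those of all regions, and support nothing about the members. Of the 151 members, 3 were higher in early G1 cells (1.99%), against 0.302% of all regions tested, and 0 were lower, against 0.0402% (0.342% in either direction). All 3 had an unsynchronized mean under 100 and entered through their early G1 signals. At an unadjusted p under 0.05, 28 members were higher and 2 lower, or 18.5% and 1.32%, against 13.9% and 0.945% of all regions. The count of 3 was 0 when each library was divided by its median, where the fit called none of the 4972 regions. At an unadjusted p under 0.05 that fit had 11 of the 151 members higher and 14 lower. Over all 4972 regions it had 212 higher and 285 lower, or 4.26% and 5.73%. The count was also 0 without unsynchronized replicate 2, and 5 and 12 without early G1 replicates 1 and 2. With a library left out, the group of 1 sample is assumed to vary like the other group. The 2 libraries of that other group then give each region's residual spread, which limma draws toward a trend over all regions.

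The summary values of the members lay near those of all regions. Their median log2 change was 0.43 and that of all regions tested was 0.41, and 115 members (76.2%) were above 0, against 78.0%. Both early G1 libraries were above both unsynchronized libraries in 70 members (46.4%), against 43.9% of all regions, and below both in 9 (5.96%), against 4.67%. In 72 members the groups overlapped. After division by each library's median, 28 members were above and 41 below (18.5% and 27.2%), against 19.5% and 22.9% of all regions. The median log2 change of members was then -0.03.

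**Figure D5:**
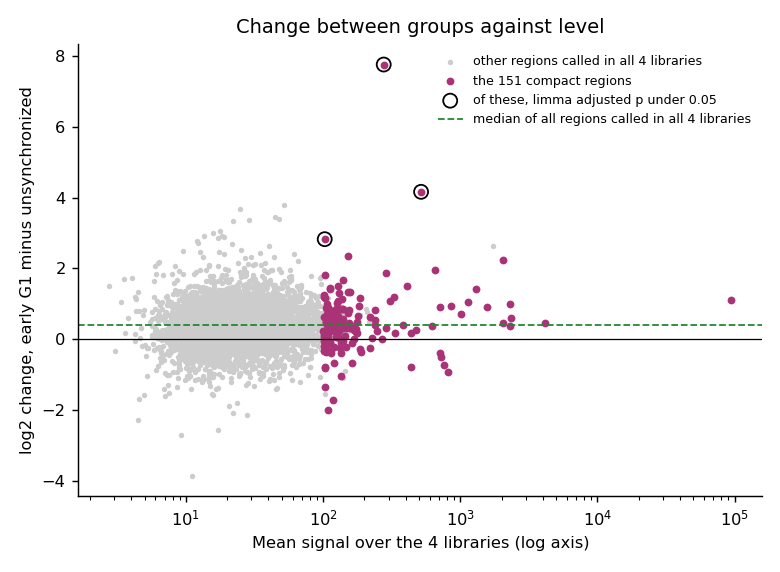
log2 change of signal, early G1 minus unsynchronized, against the mean signal over the 4 libraries on a log axis, for all regions called in all 4 libraries (grey) and the 151 compact regions (purple points). Circles mark the 3 that passed the test, and the dashed line is the median of all regions at 0.41. The purple points lie about the same line as the grey ones, and the region of highest signal did not pass.

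The median log2 changes of the strongest and of the longest members lay on opposite sides of this. All of the 10 members of highest mean signal had a log2 change above 0, with a median of 0.95, and after division by the library medians 7 of 10 were above 0 at a median of 0.49. In the other 141 members the median was 0.41 (-0.05 after division). In the 13 members of 2000 to 3000 bp, 6 were above 0, with a median of -0.05 (-0.51 after division). None of the 10 passed the test, and the difference between these classes was not tested. The rule's mean gives most weight to the libraries of higher signal. The ranking uses that mean, and early G1 replicate 1 was highest in all of the 10. Their direction is therefore not independent of the ranking.

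The largest increase among members was at chr19:12083017-12084043, where the recovered reads of the unsynchronized libraries were at or near 0. Such reads are a geometric mean of the strands, so a low count on either strand can bring them there. Unsynchronized replicates 1 and 2 had signals of 0 and 0.703, on 0 and 2 reads and calls of 125 and 211 bp. Early G1 replicates 1 and 2 had 1029 and 77.1, on 8630 and 621 reads and calls of 1027 and 846 bp. The groups did not overlap, and the early G1 libraries were 13.3-fold apart. The limma adjusted p was 0.00058, and the fitted log2 change of 7.76 (SE 0.82) depends on the added 1, since an unsynchronized library was at 0. With regions merged within 1 kb it became 1.91 (limma adjusted p = 0.29), and another called region lay 550 bp away.

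At chr13:22121066-22122063 the signals were 38.3 and 36.9 in unsynchronized cells against 1719 and 278 in early G1 cells. The unsynchronized libraries were nearly equal and both early G1 libraries were far above them, though far apart from each other. The log2 change was 4.17 (SE 0.63, limma adjusted p = 0.024), and the reads were 411 and 226 against 14009 and 1874. Its cluster partner chr13:22132638-22134426, 10.6 kb away and named here after its values were seen, had signals of 146 and 277 against 281 and 256, and its groups overlapped.

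The third region past the threshold was chr6:145289453-145290101. Its signals were 41.0 and 13.3 in unsynchronized cells against 223 and 134 in early G1 cells, without overlap. The log2 change was 2.83 (SE 0.51, limma adjusted p = 0.036), and the mean signals were 27.1 ± 19.6 and 178.5 ± 63.5 (SD, n = 2), a ratio of 6.58. With a mean over the 4 libraries of 102.8, it met the rule only through its early G1 signals, so its place among the members is tied to this difference. This region stood alone, with the nearest other called region 33452 bp away. Its calls of 477 and 631 bp against 442 and 439 bp were of similar length, and the early G1 calls were the shorter.

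Further large differences missed the threshold. At chr8:97227431-97228024 the signals were 1033 and 491 in unsynchronized cells against 3574 and 3131 in early G1 cells, with no overlap and early G1 replicates that agreed closely. The log2 change was 2.23 (SE 0.51, limma adjusted p = 0.090). At chr13:81022663-81024824, named after its values were seen, they were 126 and 120 against 381 and 528, on calls of 2122 to 2159 bp in all libraries. Its log2 change was 1.86 (SE 0.42, limma adjusted p = 0.089). Of the 5 largest increases, the one at chr13:21291909-21292619 (log2 change 2.34, SE 0.88, limma adjusted p = 0.25) rested on the low unsynchronized replicate 2 given above.

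Among members that lay lower in early G1 cells, none passed the test. The lowest log2 changes were -2.004 at chr6:83057946-83059271 (SE 0.645, limma adjusted p = 0.20) and -1.72 at chr5:124777578-124778664 (SE 0.47, limma adjusted p = 0.16). At chr7:148041207-148043392, where the early G1 calls were longer, it was -1.34, and as signal times called length it was 2.40. At chr14:104920979-104921969 the signals were 95.4 and 244 against 173 and 30.4, which overlapped, at a log2 change of -1.05. At chr16:11144144-11144747, among the 15 strongest members, they were 695 and 1382 against 861 and 311, and the groups overlapped at -0.92 on the log2 scale (SE 0.55, limma adjusted p = 0.43). Calls there were uneven, at 368 and 604 bp against 377 and 157 bp. The unscaled reads were 3764 and 11249 against 2651 and 466, lower in both early G1 libraries. The remaining strong members that were lower were chr11:95893989-95894217, with 1026 and 657 against 1123 and 215, and chr13:21871424-21872500, with 711 and 991 against 529 and 674. In the former the groups overlapped and early G1 replicate 2 alone was low, while in the latter both early G1 libraries were lower. The calls of the latter were uneven, at 416 and 1076 bp against 1075 and 422 bp. Its reads were 4350 and 14370 against 4647 and 2709, and on that measure the groups overlapped.

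Among the strong members not yet described, chr2:57034406-57034967 had signals of 1136 and 374 in unsynchronized cells against 2431 and 1244 in early G1 cells. Both early G1 libraries were higher, but its unsynchronized libraries were 3.04-fold apart, and its log2 change of 1.42 (SE 0.57) had a limma adjusted p of 0.29.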

How the data were processed

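Global run-on libraries of 2 unsynchronized and 2 early G1 samples were deposited by the authors as region lists. The signal column is the authors' geometric mean, already scaled by length and apparently by library. BWA 0.7.12, HOMER and the build mm9 are named in the submitters' processing notes, with no further settings given in the sources used here. Called intervals of the lists that overlapped by 1 base or more were joined, and a library with several pieces in a region got their length-weighted mean. Groups were compared on log2(signal + 1) with limma 3.58.1 in R 4.3.3 (lmFit, eBayes with trend) over the 4972 regions called in all 4 libraries, with Benjamini-Hochberg adjustment at 0.05, after the script was tested on simulated data. Shares per library were compared with an exact permutation test. Recovered reads served to give depth and as an alternative quantity.

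Regions were named by rule: the 15 of highest mean signal, those past the threshold, the 5 highest and lowest log2 changes and length ratios, the 3 clusters with most members (ties by summed signal), and those next to the selection thresholds. Others are said to be chosen after their values were seen. The members and lists were chosen with earlier results of these data known. Alternatives changed the pseudocount, scaling, quantity, merging, model, filters, selection thresholds and libraries used.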

Additional observations from a re-analysis of the deposited data

How the results depend on the processing

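The group comparison depended on the scaling between libraries and on single libraries. The 17 regions past the threshold among all 4972 became 0 when each library was divided by its median, 1 with signal times called length, 1 with recovered reads, 2 with the strongest piece, 3 with merging within 1000 bp, 2 with limma without trend, 4 with the replicate block, 32 without regions under the 25th percentile of signal and 71 without regions whose called lengths were over 1.5 times apart. Leaving out 1 library gave 1 to 119, with the lone sample of a group assumed to vary like the other group. The 3 members higher in early G1 became 0, 0 and 0 under the first 3 of these, 1, 1 and 1 under the next 3 and 9 of 101 with even lengths, and leaving out 1 library gave 0 to 12 higher and 0 to 2 lower. The replicate block kept 3 members. Replicate numbers were shared by the groups, but with 2 pairs they do not establish a pairing: the differences between replicates 1 and 2 correlated at 0.10 over all shared regions and at 0.20 over the members. The median log2 change of members was -0.031 after division by the medians and -0.21 with recovered reads, which are not scaled by library. It was 0.18 to 0.59 with 1 library left out.

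Members with both early G1 libraries above numbered 28 after division by the medians, 20 with recovered reads, 307 of 620 at a minimum signal of 50 and 18 of 39 at 200, and 74 to 110 with 1 library left out. Those with both below numbered 41, 54, 25 and 2 in the same order, 4 with even lengths, and 9 to 43 with 1 library left out. The pseudocounts of 0.1 and 10 and length limits of 1500 and 6000 bp moved no count by over 1.5 times. Recovered reads are not scaled by library, so differences in depth enter that measure. Inferred library sizes were 14720000 and 13480000 reads in the unsynchronized libraries, against 8170000 and 9520000 in the early G1 libraries. The size of the part of depth in the values with recovered reads was not tested. The cause of the other changes was not tested.

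Over 41 named members and 15 settings, 512 of 590 log2 changes kept direction and side of the threshold and 46 changed sign. Dividing by the medians gave -0.0059 at chr11:68937711-68938528, -0.10 at chr1:134930496-134931003, -0.0027 at chr7:105963891-105964382, -0.15 at chr13:23663644-23665804, -0.30 at chr13:23713143-23713903, -0.42 at chr11:68875202-68876573, -0.22 at chr9:7764073-7764843 and -0.094 at chr11:87569068-87573158. With recovered reads these became -0.019, -0.32, -0.23, -0.31, -0.85, -0.35 and -0.48 in the first 7, and values were -0.051 at chr7:127978617-127979162, 1.80 at chr7:148041207-148043392, -0.93 at chr8:90812350-90812992, -0.54 at chr17:35378626-35380202 and -0.30 at chr6:128920743-128924656. With signal times called length they were 2.40 at chr7:148041207-148043392, 0.44 at chr17:48548368-48550214, -0.25 at chr8:90812350-90812992, -0.17 at chr13:23713143-23713903, 0.25 at chr17:34421858-34424787 and 0.17 at chr9:7870680-7873007. Merging within 1000 bp gave -0.021 at chr9:7764073-7764843.

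With 1 library left out, the log2 change ranged from -0.043 to 0.96 at chr11:68937711-68938528, -0.12 to 0.84 at chr1:134930496-134931003, -0.14 to 1.94 at chr9:65049233-65049652, -1.93 to 0.45 at chr11:95893989-95894217, -2.29 to 0.18 at chr14:104920979-104921969, -0.84 to 0.37 at chr17:48548368-48550214, -1.59 to 0.86 at chr17:27989572-27990165, -0.31 to 1.45 at chr8:90812350-90812992, -1.07 to 0.31 at chr13:23646834-23648037, -0.32 to 0.64 at chr13:23713143-23713903, -0.77 to 2.95 at chr13:21259422-21260111, -0.43 to 0.52 at chr11:68875202-68876573, -0.055 to 0.53 at chr9:7764073-7764843, -0.19 to 0.10 at chr9:7870680-7873007 and -0.19 to 0.93 at chr11:87569068-87573158.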
